A study of Homo sapiens with 12 samples.

Results

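The BCL2 family decides whether a cell keeps its mitochondria intact, and the genes described here are 10 of its survival and death members: BCL2, BCL2L1, MCL1, BCL2A1, BCL2L11, BMF, BBC3, PMAIP1, BAX and BAK1. They were chosen by name, and each gene was read from the probe set that the platform annotation assigns to it alone and that had the highest mean over the 12 arrays. A single-gene probe set was present for 9 of the 10 genes, among 19775 genes in all. The probe set listed for BBC3, which encodes the death protein PUMA, also names other genes, so BBC3 is not analysed here. RNA was measured on Affymetrix arrays. The cells were U937, a long-established human line with myelomonocytic features, in 4 groups of 3 arrays: EVI1-transduced cells in TPA, EVI1-transduced cells in ethanol, empty vector cells in TPA and empty vector cells in ethanol. EVI1 is a zinc finger transcription factor of the MECOM locus that is overexpressed in some myeloid leukaemias. TPA is a phorbol ester. It acts through protein kinase C, and U937 cells exposed to it become macrophage-like. It was given at 50 ng/ml for 24 h to growing cells, against an equal amount of its solvent ethanol. All 4 groups carry a vector, and the labels do not say whether replicates were transduced separately or whether a population is a clone, so p-values between the populations may cover the spread between cultures only.

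The labels were checked on the targeted gene before any member. Signals of the 5 MECOM probe sets ran from 2.68 to 3.32 in EVI1-transduced cells in TPA and 2.70 to 3.13 in EVI1-transduced cells in ethanol, against 2.59 to 3.30 in empty vector cells in TPA and 2.66 to 3.19 in empty vector cells in ethanol. No MECOM probe set differed between the populations (smallest limma adjusted p = 0.118). These probe sets may lie outside the transcript that the vector carries, so the population is called EVI1-labelled. Arrays of a group correlated at 0.991 to 0.997. Of the 10 myelomonocytic marker genes 9 were measured and 8 had a group mean above 5.07, the lowest array median, FCGR1A being the exception. Lymphoid markers reached that level for 2 of 4 measured genes and erythroid markers for 1 of 1. Megakaryocyte markers did so for 2 of 3, and epithelial and fibroblast markers for 2 of 6. Reaching that level therefore does not show that a gene is expressed.

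BCL2 family proteins meet at the outer mitochondrial membrane. Survival members (BCL2, BCL-XL from BCL2L1, MCL1 and BFL1 from BCL2A1) hold the pore-forming effectors BAX and BAK in check. BH3-only members (BIM from BCL2L11, BMF, PUMA and NOXA from PMAIP1) relay stress signals by binding survival members, and some of them also activate the effectors directly. When effectors open the membrane, cytochrome c leaves the mitochondria and caspases are activated. In the myeloid lineage MCL1 and BFL1 are known as survival proteins of granulocytes and monocytes, and both have short-lived transcripts or proteins.

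Values are log2 probe set signals as deposited, and a difference is the first named group minus the other on that scale, given ± its standard error (SE). A gene is called where limma's two-sided test gave an adjusted p below 0.05 after Benjamini-Hochberg adjustment over all 19775 genes. A level of one probe set cannot be set against that of another, so members are compared only by how each changed. On the arrays the members read between 6.37 and 12.78, all above the median of every array. In RNA from whole cultures, fewer cells of a type and less RNA per cell cannot be told apart.

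With TPA the survival genes BCL2L1, MCL1 and BCL2A1 rose in both populations, as did BMF, BAX and BAK1, while PMAIP1 fell in both. BCL2 rose and BCL2L11 fell in empty vector cells, and neither was called in EVI1-labelled cells. In EVI1-labelled cells 7 of 9 members were called, 6 higher and 1 lower, and in empty vector cells all 9 were called, 7 higher and 2 lower. Calls were common after TPA: they covered 40% of all genes in EVI1-labelled cells and 43.2% in empty vector cells, and 67.7% and 70.5% of the genes with a mean above the median. By direction, 19.4% of all genes were called higher and 20.6% lower in EVI1-labelled cells, and 20.7% higher and 22.5% lower in empty vector cells. TPA and ethanol arrays did not overlap for 46.6% of all genes in EVI1-labelled cells and 50.3% in empty vector cells. The counts of members called are near this background for genes with a mean above the median, so sizes are given beside them. The median size of a member's difference was 1.25 in EVI1-labelled cells and 1.36 in empty vector cells, where over all genes the medians were 0.187 and 0.213. The medians over all genes include the dim ones. No median size was taken over genes with a mean above the median, to which all 9 members belong. A measure of RNA quality also differed by treatment. The gap between 3' and 5' ACTB probe sets averaged 1.31 ± 0.17 over TPA arrays and 1.85 ± 0.13 over ethanol arrays (SD, n = 6 each, exact permutation test, two-sided p = 0.00216), and its part in the members' differences was not tested.

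**Figure D1:**
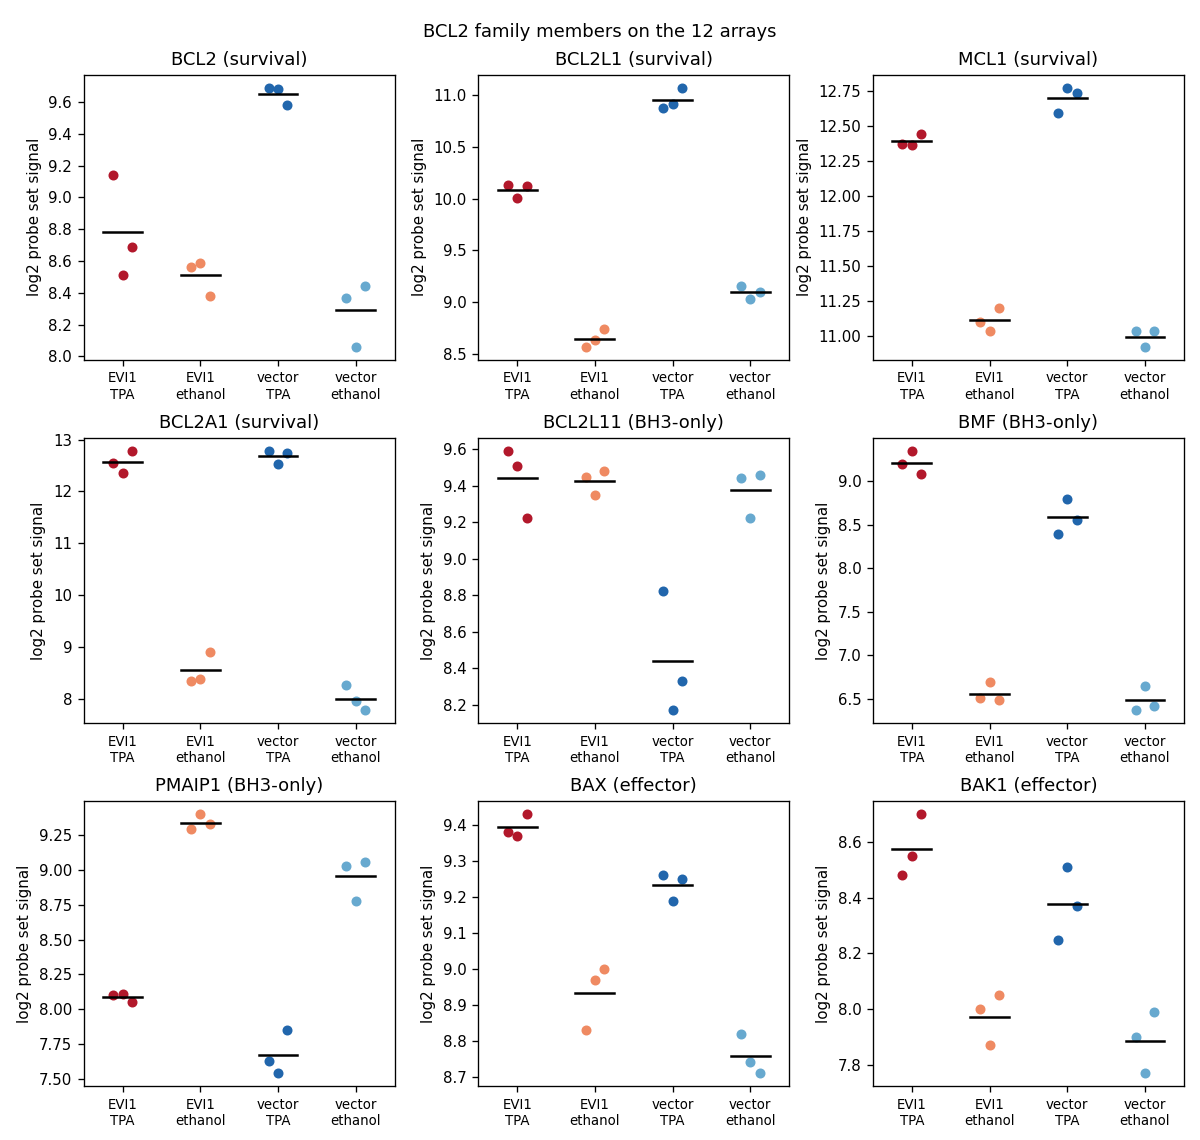
Log2 probe set signal (vertical axes) of the 9 measured members on every array, with the 4 groups along the horizontal axes, a point for each array and a bar for the group mean. BCL2A1 and BMF show the widest gaps between TPA and ethanol, and BCL2L11 is low in empty vector cells in TPA only.

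BCL2A1, which encodes the survival protein BFL1 and is a known NF-kB target, had the largest response of the family. Its signal was 12.55, 12.35 and 12.78 in EVI1-labelled cells in TPA, against 8.35, 8.38 and 8.91 in EVI1-labelled cells in ethanol. In empty vector cells it was 12.78, 12.53 and 12.74 in TPA, against 8.27, 7.95 and 7.78 in ethanol. The TPA arrays lay far above the ethanol arrays in both populations, with no overlap. The rise was 4.01 ± 0.16 in EVI1-labelled cells (16.1-fold, adjusted p = 2.12e-10) and 4.68 ± 0.16 in empty vector cells (25.7-fold, adjusted p = 3.79e-11). These rises ranked 91 and 79 among all genes.

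The bases before the BCL2A1 start are shown because this gene responded most, beside those of BCL2L11 and BMF, 2 of the 3 BH3-only genes that were higher in EVI1-labelled cells in TPA. Each window holds the 250 bases before the start, on the gene's strand, from the RefSeq table of build GRCh38.p14: chr15:79971197-79971446 (minus strand) for BCL2A1, chr2:111120664-111120913 (plus strand) for BCL2L11 and chr15:40108880-40109129 (minus strand) for BMF. Capitals mark matches to any of 3 motifs on either strand: AP-1 (TGANTCA), FOXO (GTAAACA) and the NF-kB consensus.
BCL2A1: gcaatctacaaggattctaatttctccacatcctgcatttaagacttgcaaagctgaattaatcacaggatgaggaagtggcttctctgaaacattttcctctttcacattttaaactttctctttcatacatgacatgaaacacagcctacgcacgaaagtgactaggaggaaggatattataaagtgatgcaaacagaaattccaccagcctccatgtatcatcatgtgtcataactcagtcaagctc
BCL2L11: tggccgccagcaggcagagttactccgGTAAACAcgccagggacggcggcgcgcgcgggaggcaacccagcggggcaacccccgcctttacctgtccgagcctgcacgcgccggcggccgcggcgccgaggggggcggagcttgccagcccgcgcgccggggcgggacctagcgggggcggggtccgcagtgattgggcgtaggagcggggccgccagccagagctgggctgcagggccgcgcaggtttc
BMF: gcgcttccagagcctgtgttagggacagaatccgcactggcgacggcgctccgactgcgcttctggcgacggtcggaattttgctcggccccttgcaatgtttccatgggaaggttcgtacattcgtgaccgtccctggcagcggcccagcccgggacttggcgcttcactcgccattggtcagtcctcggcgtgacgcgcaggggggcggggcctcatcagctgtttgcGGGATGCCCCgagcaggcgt
The BCL2L11 window holds a FOXO match at positions -223 to -217 from the start, and the BMF window an NF-kB consensus match at -20 to -11, which reads as a match on both strands. The table holds another BMF window, at chr15:40106967-40107216 (minus strand), with no match to the 3 motifs. None of the 3 motifs is spelled in the BCL2A1 window. Among the 35116 windows of the table, 6.57% hold the AP-1 motif, 2.98% the FOXO motif and 9.96% the NF-kB consensus. Of 11 windows of 9 family genes, each motif was matched in 1, the AP-1 match being that of BBC3. These 9 genes include BBC3, which was not measured, and lack MCL1, which has no window. The window of PMAIP1, the remaining BH3-only gene that was higher, is not printed and holds no match. The matches overlap no other motif of the 3, and they describe letters, not binding.

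MCL1 and BCL2L1 rose in both populations. MCL1, a short-lived survival protein, had signals of 12.37, 12.36 and 12.44 in EVI1-labelled cells in TPA, against 11.10, 11.03 and 11.20 in EVI1-labelled cells in ethanol. It had 12.59, 12.77 and 12.73 in empty vector cells in TPA, against 11.03, 10.92 and 11.03 in empty vector cells in ethanol. All TPA arrays were above all ethanol arrays. The rise was 1.28 ± 0.08 in EVI1-labelled cells (adjusted p = 1.21e-08) and 1.70 ± 0.08 in empty vector cells (adjusted p = 5.66e-10).

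BCL2L1, the gene of BCL-XL, had signals of 10.13, 10.01 and 10.12 in EVI1-labelled cells in TPA, against 8.57, 8.64 and 8.74 in EVI1-labelled cells in ethanol. Its signals were 10.87, 10.91 and 11.07 in empty vector cells in TPA, against 9.16, 9.03 and 9.10 in empty vector cells in ethanol. Each of the 4 groups held its own range: empty vector cells in TPA highest, then EVI1-labelled cells in TPA, then empty vector cells in ethanol, with EVI1-labelled cells in ethanol lowest. The rise with TPA was 1.44 ± 0.08 in EVI1-labelled cells (adjusted p = 5.56e-09) and 1.85 ± 0.08 in empty vector cells (adjusted p = 3.73e-10).

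BCL2, the founding survival gene of the family, had signals of 9.14, 8.51 and 8.69 in EVI1-labelled cells in TPA, against 8.56, 8.59 and 8.38 in EVI1-labelled cells in ethanol. The empty vector cells gave 9.69, 9.68 and 9.58 in TPA, against 8.37, 8.06 and 8.44 in ethanol. The empty vector TPA arrays stood above all others, and the EVI1-labelled arrays overlapped between TPA and ethanol. BCL2 rose by 1.36 ± 0.14 in empty vector cells (2.57-fold, adjusted p = 1.96e-06). In EVI1-labelled cells the difference was 0.27 ± 0.14 (95% interval -0.04 to 0.58, adjusted p = 0.171), and the wider of the 2 TPA spreads was there, with an SD of 0.32 in EVI1-labelled cells and 0.06 in empty vector cells. Without replicate 2 of EVI1-labelled cells in TPA the EVI1-labelled difference was 0.40 and passed (limma adjusted p = 0.039), and without replicate 1 of that group it was 0.09 (limma adjusted p = 0.634).

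Among the BH3-only genes BMF rose while PMAIP1 fell. BMF, whose protein is held at the cytoskeleton by dynein light chain until released, had signals of 9.20, 9.35 and 9.09 in EVI1-labelled cells in TPA, against 6.51, 6.69 and 6.48 in EVI1-labelled cells in ethanol. In empty vector cells it had 8.40, 8.80 and 8.56 in TPA, against 6.37, 6.65 and 6.42 in ethanol. The ethanol groups overlapped and the 2 TPA groups did not. The rise was 2.65 ± 0.12 in EVI1-labelled cells (6.29-fold, adjusted p = 4.09e-10) and 2.11 ± 0.12 in empty vector cells (4.31-fold, adjusted p = 2.8e-09). After BCL2A1 it was the largest rise among the members in both populations. In ethanol the BMF means were 6.56 in EVI1-labelled and 6.48 in empty vector cells. These lie between the group means of 2 fibroblast markers, PDGFRB (6.30 to 6.33) and COL1A1 (7.27 to 7.38). The other epithelial and fibroblast markers, EPCAM, KRT19, CDH1 and COL1A2, read lower, with group means from 3.00 to 4.39. As levels of different probe sets cannot be set against each other, whether the BMF signal in ethanol is background cannot be told.

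PMAIP1 encodes NOXA, which binds MCL1 and BFL1 and promotes the breakdown of MCL1. Its signal was 8.10, 8.11 and 8.05 in EVI1-labelled cells in TPA, against 9.29, 9.40 and 9.33 in EVI1-labelled cells in ethanol. In empty vector cells it was 7.63, 7.54 and 7.85 in TPA, against 9.03, 8.78 and 9.06 in ethanol. No group overlapped another, and in each treatment the EVI1-labelled arrays were the higher. The difference with TPA was -1.25 ± 0.10 in EVI1-labelled cells (adjusted p = 1.08e-07) and -1.28 ± 0.10 in empty vector cells (adjusted p = 7.07e-08).

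BCL2L11 encodes BIM, which ERK signalling is known to restrain and FOXO factors to induce. It had signals of 9.59, 9.51 and 9.22 in EVI1-labelled cells in TPA, against 9.45, 9.35 and 9.48 in EVI1-labelled cells in ethanol. Among empty vector cells it had 8.82, 8.17 and 8.33 in TPA, against 9.44, 9.22 and 9.46 in ethanol. The empty vector TPA arrays were the lowest, and the other 3 groups overlapped. BCL2L11 was lower with TPA in empty vector cells, with a difference of -0.93 ± 0.15 (adjusted p = 0.000103). In EVI1-labelled cells the difference was 0.01 ± 0.15 (95% interval -0.31 to 0.33, adjusted p = 0.961).

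Both effectors rose, by less than any other called member. BAX, a cytosolic pore protein that inserts into mitochondria on activation, had signals of 9.38, 9.37 and 9.43 in EVI1-labelled cells in TPA, against 8.83, 8.97 and 9.0 in EVI1-labelled cells in ethanol. Its signals in empty vector cells were 9.26, 9.19 and 9.25 in TPA, against 8.82, 8.74 and 8.71 in ethanol. TPA arrays lay above ethanol arrays in both populations. It rose by 0.46 ± 0.07 in EVI1-labelled cells (adjusted p = 0.000146) and 0.48 ± 0.07 in empty vector cells (adjusted p = 9.46e-05), a size of 1.38-fold and 1.39-fold.

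BAK1, the effector that resides in the mitochondrial membrane, had signals of 8.48, 8.55 and 8.70 in EVI1-labelled cells in TPA, against 8.0, 7.87 and 8.05 in EVI1-labelled cells in ethanol. BAK1 signals in empty vector cells were 8.25, 8.51 and 8.37 in TPA, against 7.90, 7.77 and 7.99 in ethanol. TPA and ethanol arrays did not overlap within a population, and the populations overlapped within each treatment. The rise was 0.60 ± 0.10 in EVI1-labelled cells (adjusted p = 0.000123) and 0.49 ± 0.10 in empty vector cells (adjusted p = 0.000693).

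After TPA the populations differed in 6 of 9 members, 3 higher and 3 lower. Of the survival genes BCL2, BCL2L1 and MCL1 were lower in EVI1-labelled cells, and the BH3-only genes BCL2L11, BMF and PMAIP1 were higher. BCL2A1, BAX and BAK1 were not called. In this comparison 11.2% of all genes were called, 5.9% higher and 5.3% lower, and 18.9% of the genes with a mean above the median. The median size of a member's difference was 0.413, against 0.11 over all genes, dim ones included. The arrays of the populations did not overlap for 22.4% of all genes, and they did not for the 6 called members and BAX. The comparison shares its empty vector TPA arrays with that of TPA and ethanol in empty vector cells, so a low or high reading there enters both.

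BCL2L1 was lower in EVI1-labelled cells in TPA, with a difference of -0.86 ± 0.08 (adjusted p = 2.25e-05), with values of 10.09 ± 0.07 in EVI1-labelled and 10.95 ± 0.11 in empty vector cells (SD, n = 3 each). BCL2 was lower, with a difference of -0.87 ± 0.14 (adjusted p = 0.00128), at 8.78 ± 0.32 in EVI1-labelled and 9.65 ± 0.06 in empty vector cells. The linear size was 1.82-fold for BCL2L1 and 1.83-fold for BCL2. MCL1 differed by -0.31 ± 0.08 (1.24-fold, adjusted p = 0.0239). Its arrays did not overlap, with a gap of 0.15 between the groups, but the call was lost without replicate 1 or 2 of EVI1-labelled cells in TPA (limma adjusted p = 0.0697 and 0.0811) or without replicate 2 or 3 of empty vector cells in TPA (limma adjusted p = 0.0884 and 0.073).

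BCL2L11 was higher in EVI1-labelled cells in TPA by 1.00 ± 0.15 (2-fold, adjusted p = 0.000582), at 9.44 ± 0.19 in EVI1-labelled and 8.44 ± 0.34 in empty vector cells (SD, n = 3 each). BMF was higher by 0.63 ± 0.12 (1.54-fold, adjusted p = 0.00296) and PMAIP1 by 0.41 ± 0.10 (1.33-fold, adjusted p = 0.0139). The PMAIP1 call was lost without replicate 2 of empty vector cells in TPA (limma adjusted p = 0.0628). Taken by replicate number, the difference of BCL2L11 was 0.77, 1.34 and 0.89 and that of BCL2 was -0.55, -1.17 and -0.89. For both genes the arrays of the groups did not overlap, so the shared sign follows from that and adds no support. BCL2A1 differed by -0.12 ± 0.16 (95% interval -0.48 to 0.23). The interval ran from -0.00 to 0.32 for BAX and from -0.01 to 0.41 for BAK1, and neither passed the test.

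Macrophage markers moved with the same comparison. Of 7 listed genes 6 were measured, and their summed signal on the log2 scale was 10.43 to 10.81 in EVI1-labelled cells in TPA and 7.45 to 7.55 in EVI1-labelled cells in ethanol, against 11.25 to 11.64 in empty vector cells in TPA and 7.38 to 7.63 in empty vector cells in ethanol. MRC1 stayed below the lowest array median, at 3.10 or less in every group mean. ITGAM, an integrin of macrophages, averaged 8.52 in EVI1-labelled and 10.03 in empty vector cells in TPA. In the same order the means were 5.05 and 6.75 for CD14, and 5.39 and 7.01 for CD163. They were closer for ITGAX, at 9.17 and 9.67, and for CSF1R, at 8.98 and 9.19. MRC1 went the other way, at 3.10 and 2.99. The part of these markers in the members' differences was not tested.

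**Figure D2:**
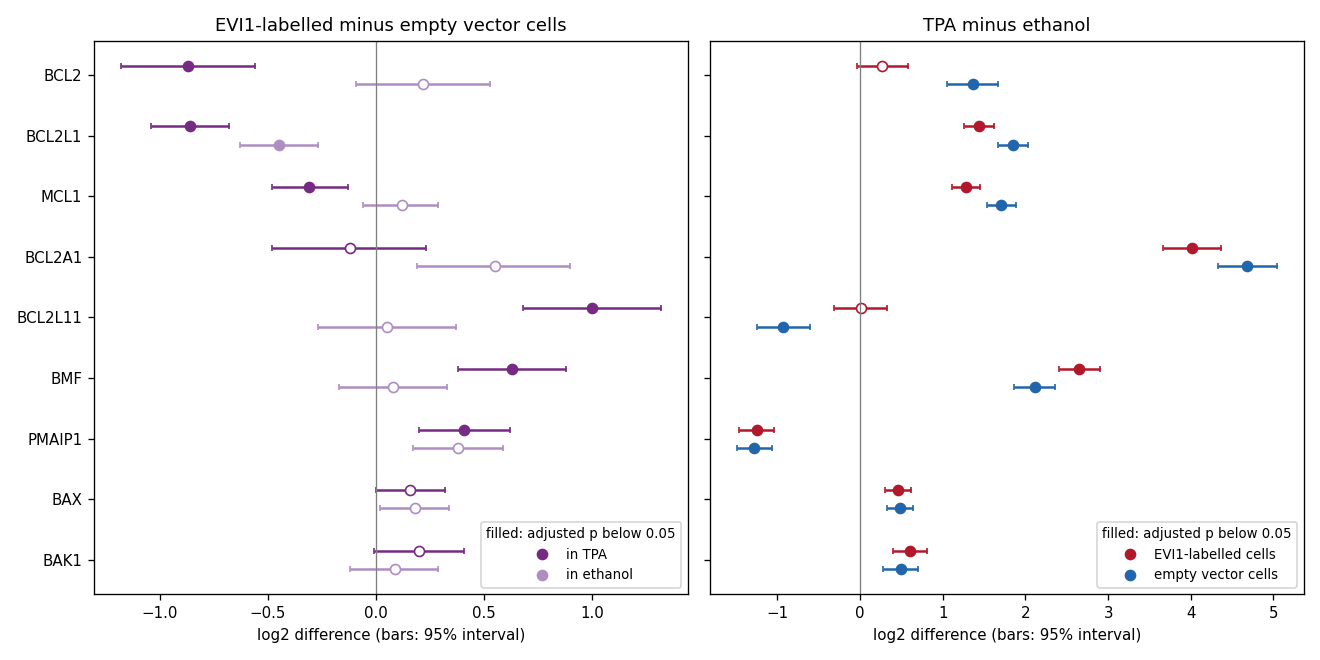
Log2 difference of each member (horizontal axes) with its 95% interval, EVI1-labelled minus empty vector cells on the left and TPA minus ethanol on the right, filled points having a limma adjusted p below 0.05. In TPA BCL2, BCL2L1 and MCL1 lie left of 0 and BCL2L11, BMF and PMAIP1 right of it.

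In ethanol the populations differed in 1 of 9 members, where 3.27% of all genes (1.32% higher, 1.95% lower) and 5.6% of those with a mean above the median were called. Their arrays did not overlap for 22% of all genes. BCL2L1 was lower in EVI1-labelled cells, with a difference of -0.45 ± 0.08 (1.36-fold, adjusted p = 0.00805). Leaving out the first EVI1-labelled ethanol array ended the call (limma adjusted p = 0.0516). None of the 3 other BCL2L1 probe sets was called by limma in ethanol, at -0.39 to -0.26, and 1 had an unadjusted p below 0.05. PMAIP1 lay just outside the threshold at 0.38 ± 0.10 (adjusted p = 0.0511), with no overlap between the groups, and passed without replicate 2 or 3 of empty vector cells in TPA (limma adjusted p = 0.0453 and 0.032), arrays that enter this comparison only through the shared spread.

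BCL2A1 differed by 0.55 ± 0.16 in ethanol (95% interval 0.19 to 0.90, adjusted p = 0.11). Its EVI1-labelled arrays of 8.35, 8.38 and 8.91 lay above the empty vector arrays of 8.27, 7.95 and 7.78, and the third EVI1-labelled array was the highest. Without that array the difference was 0.36 (limma adjusted p = 0.372). The other 6 members gave differences between 0.05 for BCL2L11 and 0.22 for BCL2, none called. Their intervals reached at most 0.53, for BCL2.

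The response to TPA itself was then compared, as the difference with TPA in EVI1-labelled cells minus that in empty vector cells. This was called for 2 of 9 members, where 1.98% of all genes (0.936% higher, 1.05% lower) and 3.05% of those with a mean above the median were called. BCL2 responded less in EVI1-labelled cells, with a difference of -1.09 ± 0.20 (95% interval -1.53 to -0.65, adjusted p = 0.0154). BCL2L11 had a difference in response of 0.95 ± 0.21 (95% interval 0.50 to 1.40, adjusted p = 0.0365). The BCL2L11 call was lost without any 1 of 9 of the 12 arrays, at limma adjusted p-values of 0.0707 to 0.0989, while the difference stayed between 0.81 and 1.14 over all 12 omissions. The call held when the array left out was replicate 3 of EVI1-labelled cells in TPA, replicate 1 of empty vector cells in TPA or replicate 2 of those in ethanol.

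The other 7 members did not pass the test of the difference in response. MCL1 gave -0.42 ± 0.11 (adjusted p = 0.0833), BCL2L1 -0.42 ± 0.12 (adjusted p = 0.106) and BCL2A1 -0.67 ± 0.23 (adjusted p = 0.209). BMF gave 0.55 ± 0.16 (adjusted p = 0.133). PMAIP1, BAX and BAK1 lay between -0.02 and 0.11, with intervals from -0.27 to 0.33 for PMAIP1, -0.24 to 0.21 for BAX and -0.18 to 0.41 for BAK1. For PMAIP1 the difference between the populations was 0.41 in TPA and 0.38 in ethanol, of which the first was called.

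Further probe sets of the same genes were read as a check, in a fit over all probe sets. The 9 genes had 28 single-gene probe sets, 19 of them beyond those used above. BCL2A1, BMF and BAK1 had no second one. For the populations in TPA, all 3 other BCL2L1 probe sets were called lower, from -0.90 to -0.45, and 4 of 6 other BCL2L11 probe sets were called higher, the 6 ranging from 0.06 to 0.72. The second PMAIP1 probe set was called higher at 0.53. None of the 5 other MCL1 probe sets was called by limma, 4 had an unadjusted p below 0.05, and they ranged from -0.37 to 0.02.

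BCL2 rested on a single probe set. Its 3 other probe sets averaged 4.80 to 6.30 over the arrays, gave differences of -0.08 to 0.08 for TPA in empty vector cells and of -0.28 to 0.12 between the populations in TPA, and none was called by limma. Of the 3, 0 had an unadjusted p below 0.05 for TPA in empty vector cells and 1 between the populations in TPA. One BCL2L1 probe set did not follow the others with TPA, at -0.04 in EVI1-labelled and 0.02 in empty vector cells, where the other 2 rose by 1.12 and 1.36 in EVI1-labelled and by 1.66 and 1.96 in empty vector cells. For TPA all 5 other MCL1 probe sets were called higher in both populations. In empty vector cells 5 of 6 other BCL2L11 probe sets were called lower with TPA. In EVI1-labelled cells 2 of 6 were called lower with TPA, the 6 ranging from -0.51 to -0.02, where the probe set used above gave 0.01. No other probe set was called by limma for the difference in response, and 4 of 6 for BCL2L11, 2 of 3 for BCL2L1, 1 of 5 for MCL1 and 0 of 3 for BCL2 had an unadjusted p below 0.05.

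**Figure D3:**
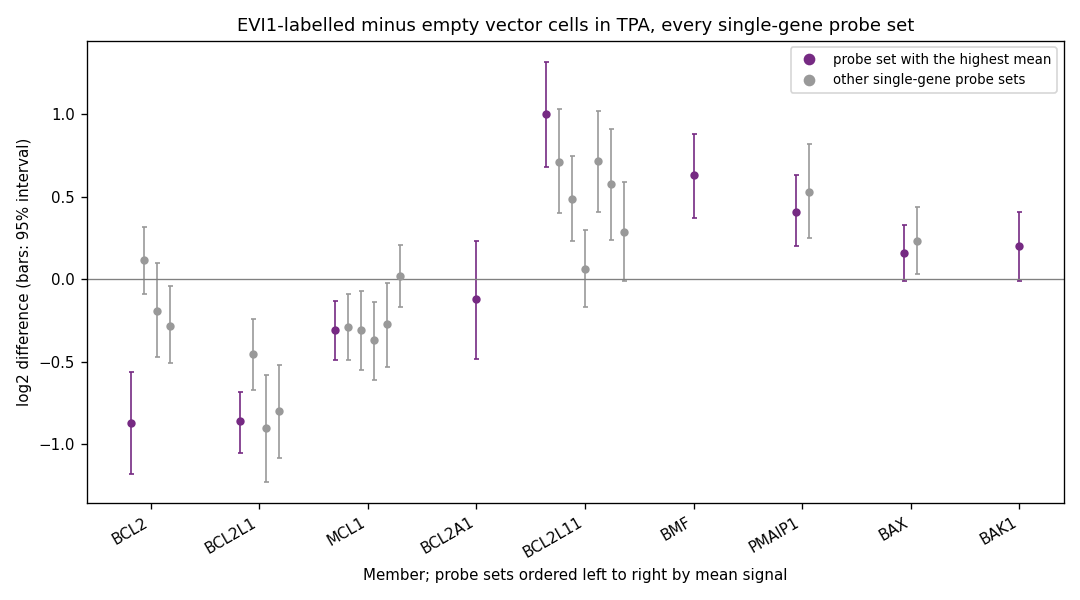
Log2 difference between EVI1-labelled and empty vector cells in TPA (vertical axis, bars for the 95% interval) for all 28 single-gene probe sets, grouped by member along the horizontal axis and ordered by mean signal. Every BCL2L1 probe set is below 0 and every BCL2L11 and PMAIP1 probe set above it, while BCL2 has 1 probe set far below 0 and 3 near it.

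Genes beside the members on their chromosomes were read to see whether a member moved with its region. The 10 nearest measured genes on each side had median differences between EVI1-labelled and empty vector cells of -0.07 to 0.05 in TPA and -0.03 to 0.09 in ethanol, over the 9 members. BCL2L1, on chromosome 20, had a neighbour median of 0.02 in TPA and -0.03 in ethanol, and 2 of its 20 neighbours were called lower in each treatment. These were HM13, a signal peptide peptidase gene, at -1.42 in TPA and -1.23 in ethanol, and ID1, an inhibitor of DNA-binding factors, at -0.50 in TPA and -1.33 in ethanol. Both lie on the same side of BCL2L1, with 1 measured gene, COX4I2, between them and it. COX4I2 differed by -0.00 in TPA and -0.08 in ethanol, and TPX2 on the other side by 0.30 in TPA and -0.12 in ethanol. Of the 20 neighbours 14 had a mean above the lowest array median, with the same medians. As reaching that level does not show expression, these medians may rest partly on genes that are not expressed. Whether BCL2L1 moved with its region was not tested. No neighbour of BCL2 on chromosome 18 or of BMF on chromosome 15 exceeded that member in the size of the difference in TPA, but KDSR, the measured gene next to BCL2, was also called lower, at -0.39 ± 0.08 (adjusted p = 0.00602). Near BCL2L11 on chromosome 2, the mitotic checkpoint gene BUB1 was called higher in TPA at 1.20 ± 0.32 (adjusted p = 0.0254), more than BCL2L11 at 1.00.

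**Figure D4:**
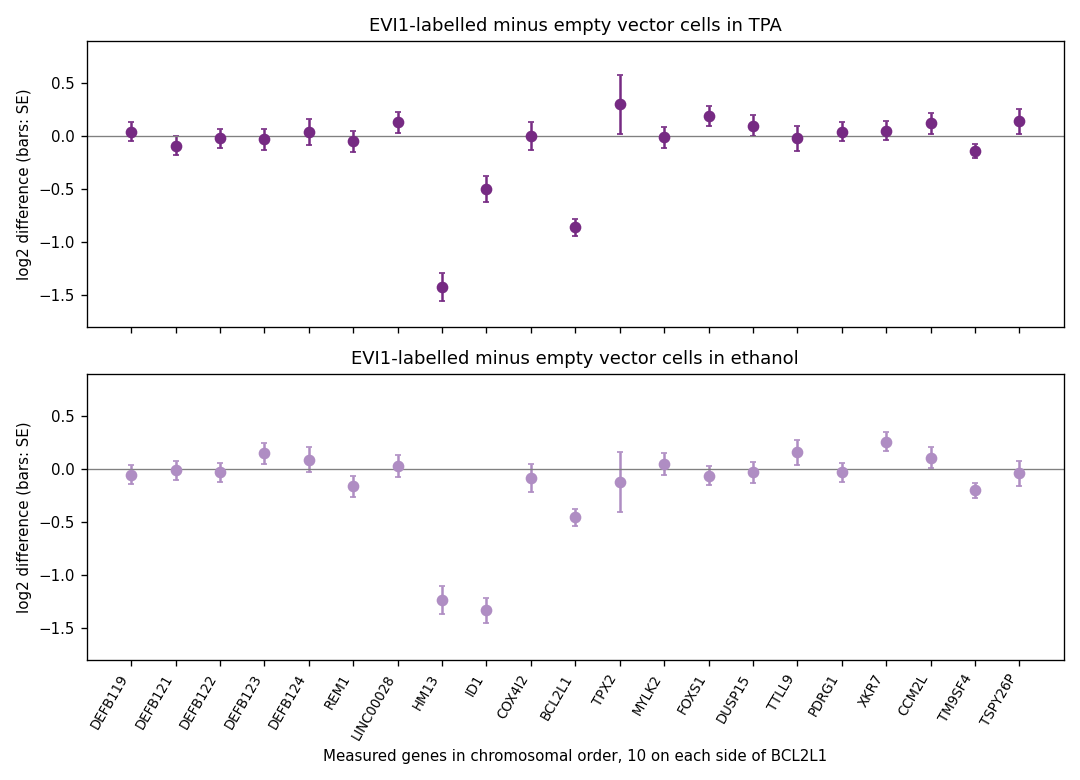
Log2 difference between EVI1-labelled and empty vector cells (vertical axes, bars for the SE) of BCL2L1 and the 10 measured genes on each side in chromosomal order, in TPA above and ethanol below. HM13, ID1 and BCL2L1 stand lowest in both treatments, and the other genes lie between -0.20 and 0.30.

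The genes with the most similar profile to each member were found by the root mean square difference of centred log2 values over the 12 arrays, among 10454 genes whose highest group mean exceeded the median gene mean. Nearest to BCL2 were MTF1 (0.167) and TRG-AS1 (0.184), and nearest to BCL2L11 were TAF9B (0.161) and POLG2 (0.165). MTF1 differed between the populations in TPA by -0.75 and TAF9B by 0.84. BCL2L1 was nearest to ACER3 (0.137) and TBRG1 (0.149), MCL1 to GNA13 (0.0663) and ANXA2 (0.0737), and BCL2A1 to the CDK inhibitor gene CDKN1A (0.207) and HMOX1 (0.225). BMF was nearest to CSF2RB (0.175) and ARHGEF3 (0.192), PMAIP1 to TEX10 (0.118) and PAFAH1B3 (0.122), BAX to RMDN1 (0.0506) and C5orf24 (0.0517), and BAK1 to TAOK1 (0.0622) and ERGIC3 (0.0693). These distances describe 12 arrays that share the treatments and populations.

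The other listed genes are read against the shares over all genes. With TPA 40% of all genes were called in EVI1-labelled cells (19.4% higher, 20.6% lower) and 43.2% in empty vector cells (20.7% higher, 22.5% lower). Of 13 other BCL2 relatives, 3 rose and 2 fell with TPA in EVI1-labelled cells and 3 rose and 4 fell in empty vector cells, with medians of -0.07 and -0.08. These counts are near the shares over all genes. Of the genes with a mean above the median, more were called, 67.7% in EVI1-labelled and 70.5% in empty vector cells. BCL2L12 fell to 7.20 in EVI1-labelled cells in TPA, against 8.72 in ethanol, and to 6.98 in empty vector cells in TPA, against 8.83 in ethanol. BCL2L2, the survival gene of BCL-W, rose by 0.31 ± 0.08 in EVI1-labelled cells and 0.51 ± 0.08 in empty vector cells. Between the populations 2 of the 13 were called in TPA and 2 in ethanol, all higher in EVI1-labelled cells, where 5.9% of all genes were higher in TPA and 1.32% in ethanol. They were BIK, a BH3-only gene, at 0.84 ± 0.14 in TPA and 0.60 ± 0.14 in ethanol, and BNIP3L, a mitochondrial outer membrane protein gene of mitophagy, at 0.77 ± 0.09 in TPA and 0.43 ± 0.09 in ethanol.

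Genes of the death machinery downstream of the mitochondria mostly fell with TPA. Of 16 listed genes 13 were measured, and 3 rose and 9 fell in EVI1-labelled cells, and 3 rose and 10 fell in empty vector cells, against the shares over all genes given above. The medians were -0.54 in EVI1-labelled and -0.59 in empty vector cells, against 0.00 and 0.02 over all genes. BIRC5, which encodes survivin, an inhibitor of apoptosis protein with a role in mitosis, differed by -4.56 ± 0.39 in EVI1-labelled and -4.65 ± 0.39 in empty vector cells. ENDOG, a mitochondrial nuclease gene, differed by -1.0 ± 0.07 in EVI1-labelled and -1.25 ± 0.07 in empty vector cells. The caspase-restraining genes BIRC2 and XIAP rose, and so did the caspase gene CASP9. BIRC2 rose by 1.19 ± 0.09 in EVI1-labelled and 1.31 ± 0.09 in empty vector cells. XIAP rose by 0.89 ± 0.07 in EVI1-labelled and 0.82 ± 0.07 in empty vector cells. The rise of CASP9 was 0.48 ± 0.10 in EVI1-labelled and 0.57 ± 0.10 in empty vector cells. Between the populations in TPA, 2 of 13 were higher, VDAC2 and XIAP at 0.30 each, and VDAC3 was lower at -0.41. In ethanol HTRA2 and VDAC3 were lower and VDAC2 higher. The shares over all genes were 5.9% higher and 5.3% lower in TPA, and 1.32% higher and 1.95% lower in ethanol.

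**Figure D5:**
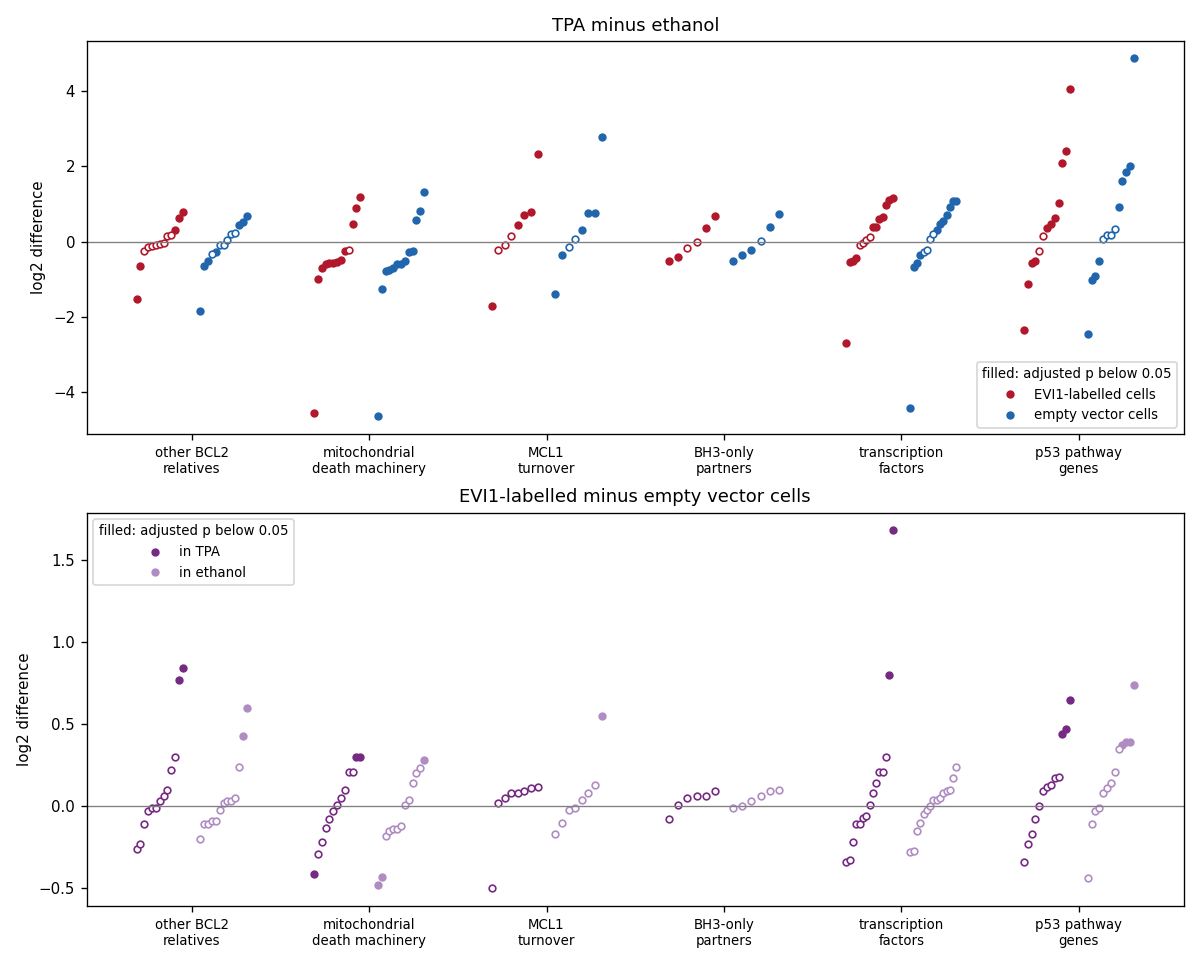
Log2 difference (vertical axes) of each measured gene of 6 related lists, TPA minus ethanol above and EVI1-labelled minus empty vector cells below, a point for each gene, filled where the limma adjusted p is below 0.05. MYB has the largest difference between the populations, and CDKN1A the largest rise with TPA.

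Genes that act on MCL1 protein or bind BH3-only proteins were read in the same way. Of 8 genes of MCL1 turnover, 4 rose and 1 fell with TPA in EVI1-labelled cells, and 4 rose and 2 fell in empty vector cells. These counts, and those of the 6 partners below, are near the 67.7% of genes with a mean above the median called in EVI1-labelled cells and the 70.5% in empty vector cells. DUSP6, an ERK phosphatase gene, rose by 2.32 ± 0.08 in EVI1-labelled and 2.78 ± 0.08 in empty vector cells, and USP13, a deubiquitinase gene, differed by -1.72 ± 0.20 in EVI1-labelled and -1.39 ± 0.20 in empty vector cells. None of the 8 was called by limma between the populations in TPA, where 1 had an unadjusted p below 0.05, and DUSP6 was higher in EVI1-labelled cells in ethanol, by 0.55 ± 0.08. Of 6 partners of BH3-only proteins 2 rose and 2 fell in EVI1-labelled cells and 2 rose and 3 fell in empty vector cells. The dynein light chain genes moved apart, DYNLL1 by 0.37 ± 0.08 in EVI1-labelled and 0.38 ± 0.08 in empty vector cells, and DYNLL2 by -0.51 ± 0.09 in EVI1-labelled and -0.52 ± 0.09 in empty vector cells. None of the 6 was called by limma between the populations in either treatment, and 0 had an unadjusted p below 0.05. Over all genes 11.2% were called between the populations in TPA and 3.27% in ethanol. Few or no calls are therefore the background for lists of 8 and 6 genes.

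Of 16 transcription factor genes known to act on the members 15 were measured. With TPA 7 rose and 4 fell in each population, near the 67.7% of genes with a mean above the median called in EVI1-labelled cells and the 70.5% in empty vector cells. DDIT3, a stress factor gene known to induce BCL2L11, rose by 1.16 ± 0.13 in EVI1-labelled and 1.09 ± 0.13 in empty vector cells. FOXO1, a relative of the BCL2L11 inducer FOXO3, rose by 0.97 ± 0.13 in EVI1-labelled and 1.08 ± 0.13 in empty vector cells. MYB, a progenitor factor known to act on BCL2, differed by -2.69 ± 0.14 in EVI1-labelled and -4.42 ± 0.14 in empty vector cells, and its difference in response of 1.73 ± 0.20 was called (adjusted p = 0.000664). In TPA 2 of 15 were called between the populations, MYB at 1.68 ± 0.14 and the NF-kB subunit gene REL at 0.80 ± 0.16, both higher in EVI1-labelled cells. In ethanol none of the 15 was called by limma, and 2 had an unadjusted p below 0.05. Over all genes 11.2% were called between the populations in TPA and 3.27% in ethanol, so both counts are near the background.

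Of 14 p53 pathway genes outside the members 13 were measured. With TPA 7 rose and 4 fell in EVI1-labelled cells, and 5 rose and 4 fell in empty vector cells. The medians were 0.35 and 0.18, against 0.00 and 0.02 over all genes. With TPA 40% of all genes were called in EVI1-labelled and 43.2% in empty vector cells. Of the genes with a mean above the median, 67.7% and 70.5% were called. CDKN1A rose by 4.05 ± 0.11 in EVI1-labelled and 4.87 ± 0.11 in empty vector cells, while the DNA repair gene DDB2 differed by -2.36 ± 0.09 in EVI1-labelled and -2.45 ± 0.09 in empty vector cells. Against empty vector cells, 3 of the 13 were higher in EVI1-labelled cells in TPA and 4 in ethanol, and 0 were lower in either. Over all genes 5.9% were higher and 5.3% lower in TPA, and 1.32% higher and 1.95% lower in ethanol. FAS, a death receptor gene, was higher by 0.65 ± 0.08 in TPA and 0.37 ± 0.08 in ethanol. TNFRSF10B, a TRAIL receptor gene, differed in response by -0.56 ± 0.12 (adjusted p = 0.0365) and CDKN1A by -0.81 ± 0.16 (adjusted p = 0.0224).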

How the data were processed

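The authors deposited 1 log2 expression value for each probe set and array. The submitters' processing notes name RMA and Affymetrix Expression Console 1.3. RMA corrects background, gives all arrays one distribution and combines a set's probes into one value. A change shared by most genes is thereby lost. The sources used here do not give which arrays were normalized as one batch. Array medians lay between 5.07 and 5.11.

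Of 54675 probe sets, 62 controls were left out, and 41091 name 1 gene, 1801 several and 11721 none in the platform annotation given for this work. Each of 19775 genes took the single-gene probe set with the highest mean, and symbols were updated by gene ID. The linear model of limma 3.58.1 (R 4.3.3) held a mean for each of the 4 groups and used all 12 arrays (8 residual and 5.22 prior degrees of freedom). The median SE was 0.105 for 2 groups and 0.149 for a difference in response, and the number of arrays limits the precision. Tested on simulated data for 19775 genes, changes of 0.5, 1 and 2 were recovered in 68.5%, 96.5% and 99% of 200 genes each for 2 groups, and in 38%, 88.5% and 98.5% for a difference in response. False calls made up 5.21% of calls for 2 groups and 5.06% for a difference in response.

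Replicate numbers are shared between groups. Deviations of same-numbered arrays correlated at 0.415, 0.130 and 0.151 between EVI1-labelled and empty vector cells in TPA. All exceed 0.1, so differences by replicate number are given for that comparison and for no other, where at least 1 correlation was lower. This choice rests on the data alone. The tests of the main fit were unpaired, with no replicate block, and the block was an alternative only.

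The members, gene lists and markers were chosen with earlier results of these data known. All members are named, with up to 2 raised and 2 lowered genes of each list in a comparison. CASP9 was added as a further raised gene of its list. PDGFRB and COL1A1 were chosen after their values were seen, as were HM13, ID1, COX4I2, TPX2, KDSR and BUB1 among the neighbours. Alternatives were the replicate number as a block, a filter on dim genes, the mean of all probe sets, a fit of all probe sets, median centring, quantile normalization, an intensity trend, the compared groups alone and leaving out each array.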

Additional observations from a re-analysis of the deposited data

Results flagged for a closer look

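The response of BCL2 to TPA differed between the populations by the test of the difference itself, at -1.09 ± 0.20 (SE) on the log2 scale, EVI1-labelled minus empty vector cells (limma adjusted p = 0.0154). It rested on 1 of 4 probe sets. The response of BCL2L11 differed in the same test by 0.95 ± 0.21 (limma adjusted p = 0.0365), and over the alternatives its adjusted p ran from 0.00447 to 0.0989. No group has the 4 arrays that a search for single outlying arrays needs.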

How the results depend on the processing

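Over the alternatives, 846 of 891 member differences kept their direction and their side of the threshold, 19 lost a call, 10 gained one and 16 changed sign, and no called difference changed sign. The cause of the changes was not tested unless named.

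With all probe sets fitted, more features were called by construction, at 16933 for TPA in EVI1-labelled cells, 18615 in empty vector cells and 3830 between the populations in TPA. With only the groups compared in the fit, 1241 genes were called between the populations in TPA, against 2214, and the members MCL1 and PMAIP1 lost their calls (limma adjusted p = 0.101 and 0.0538). In ethanol 2 members were called instead of 1 with dim genes left out, with quantile normalization, with an intensity trend or with only the groups compared, PMAIP1 joining BCL2L1. For the difference in response 1 member was called instead of 2 with the mean of all probe sets, where BCL2 gave -0.34 (limma adjusted p = 0.13), and with all probe sets fitted, where BCL2L11 gave 0.95 (limma adjusted p = 0.0534). MCL1 passed there with dim genes left out (0.0395) or an intensity trend (0.0226). The mean of all probe sets turned the sign of uncalled differences: BCL2 at -0.01 and BCL2L11 at -0.21 for TPA in EVI1-labelled cells, MCL1 at -0.01 and BCL2L11 at -0.07 between the populations in ethanol, and BAX at 0.00 in response. Quantile normalization gave PMAIP1 -0.01 in response.

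Leaving out 1 array gave 7213 to 7928 called genes and 7 to 8 members for TPA in EVI1-labelled cells, and 7860 to 8869 genes and 9 members in empty vector cells. Between the populations it gave 1532 to 2616 genes and 4 to 6 members in TPA, and 369 to 787 genes and 0 to 2 members in ethanol. For the difference in response it gave 188 to 681 genes and 1 to 2 members. Uncalled differences crossed 0, at -0.06 to 0.12 for BCL2L11 with TPA in EVI1-labelled cells, -0.02 to 0.10 for BCL2L11 between the populations in ethanol, and -0.04 to 0.12 for PMAIP1 and -0.07 to 0.02 for BAX in response.

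With the replicate number as a block, 8123 genes were called for TPA in EVI1-labelled cells, 8779 in empty vector cells, 2498 between the populations in TPA, 729 in ethanol and 516 for the difference in response. Of the members BMF passed there for the difference in response (limma adjusted p = 0.0248), and the block changed no other member's call. The counts of members were 7, 9, 6, 1 and 3 in that order. Depth has no counterpart on arrays, and all member signals exceeded the array medians.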
